A study of Mus musculus with 2 samples.

Results

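The genes described here are the mouse histone cluster genes: all genes whose symbol starts with Hist1h, Hist2h, Hist3h or Hist4h and that have a protein-coding transcript. They numbered 67 of 21901 genes with a protein-coding transcript, and 55450 genes were measured in all. By the protein they encode, 6 were linker histone H1 genes, 18 were H2A genes, 18 were H2B genes, 12 were H3 genes and 13 were H4 genes. They lie in tandem groups on chromosome 13 (54 genes, named Hist1), chromosome 3 (10 genes, Hist2), chromosome 11 (2 genes, Hist3) and chromosome 6 (1 gene, Hist4), in mm10 with GENCODE M21. The tissue was gastrocnemius, a calf muscle, taken from female B6CASTF1/J hybrid mice aged 36 days, supplied by The Jackson Laboratory, and its total RNA was sequenced. There was 1 group of 2 libraries, replicate 1 and replicate 2, each from 300 ng of RNA with spike-in RNAs for ribosomal RNA-reduced stranded libraries. No mutation, transgene or treatment is given in the labels, which also do not state that each library had its own animal, so that part of the spread may be technical. With no other condition, the comparisons were between genes, between the 2 libraries and between 2 ways of counting the same reads, and no p-value is given.

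Histones are the proteins around which DNA is wound. Pairs of H2A and H2B and of H3 and H4 form the nucleosome core, and H1 binds the DNA between nucleosomes. Most cluster genes are transcribed in S phase, when a dividing cell copies its DNA, and they are called replication-dependent. Their mRNAs have no introns and usually no poly(A) tail: they end shortly after a short hairpin, the histone stem-loop, which is bound by the protein Slbp. Some of these genes can also be read further and end with a poly(A) tail in cells that have stopped dividing, as most nuclei of adult muscle have. RNA-seq of total RNA keeps transcripts with and without a tail, whereas selection for poly(A) loses those without.

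The stem-loop was read from the GENCODE M21 transcripts because the genes were later grouped by where each gene model ends relative to it. An exact stem-loop with a stem of 6 paired bases and a loop of 4 bases was found in 44 of the 67 genes, 21 to 58 bases after the stop codon (median 31). It was found in 92 of all 58797 protein-coding transcripts, or 0.156%. Of the other genes, 15 had a model that stopped at the stop codon, so the sequence beyond was not in it, and 8 had a longer model without an exact match. The 6 forms are shown with 1 gene each, with the stem in capitals and the coordinates those of the 16 bases of stem and loop in mm10.
Hist1h1c, H1, chr13:23739512-23739527, plus strand: atccaaaaGGCTCTtttcAGAGCCaccact
Hist1h2bk, H2B, chr13:22036300-22036315, plus strand: gcaccaaaGGCTCTtttaAGAGCCactaaa
Hist2h2ac, H2A, chr3:96220418-96220433, minus strand: tccaaaaaGGCTCTttttAGAGCCaccaaa
Hist1h4h, H4, chr13:23531458-23531473, plus strand: aaaccaaaGGCCCTtttcAGGGCCgcccac
Hist1h4i, H4, chr13:22040966-22040981, minus strand: tacttaaaGGCCCTttttAGGGCCaccaca
Hist1h4b, H4, chr13:23757366-23757381, plus strand: ttacaaaaGGTCCTtttcAGGACCactcac

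The form of Hist1h1c was the most frequent and stood in 26 genes: 3 of H1, 10 of H2A, 8 of H2B and 5 of H3. The form of Hist1h2bk stood in 6 genes of H1, H2B and H3, and that of Hist2h2ac in that gene alone. The 11 H4 genes with a stem-loop held the other 3 forms, in 7 genes (as Hist1h4h), 2 genes (as Hist1h4i) and 2 genes (as Hist1h4b). No member outside H4 held any of these 3 forms.

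Promoters of the same genes carried short motifs at shares that differed between classes. RefSeq promoters (GRCm38.p6, 250 bases before to 50 after the start) matched 62 of the 67 genes. CCAAT, the core of the site of the factor NF-Y, was found on either strand in 85.5% of them, against 37.4% of all 32851 promoters in the table. It was present in every matched promoter of H1 (6), H2A (18), H2B (16) and H3 (10), and in 3 of 12 of H4. TATAAA was found in 56.5% of member promoters and 13.6% of all. ATTTGCAT, the octamer bound by POU factors and known from H2B promoters, was found in 7 of 18 H2A and 6 of 16 H2B promoters and in none of H1, H3 or H4, against 1.74% of all. Adjacent H2A and H2B genes share the stretch between them, so their promoters are not independent. The 160 bases before the start of 3 genes are shown with every match in capitals: Hist1h2bk, an H2B gene that differed strongly between the libraries by alignment, and Hist1h1c and Hist1h4h, the highest of H1 and H4. No motif in capitals means only that these letters were not in the window.
Hist1h2bk, chr13:22035661-22035820, plus strand: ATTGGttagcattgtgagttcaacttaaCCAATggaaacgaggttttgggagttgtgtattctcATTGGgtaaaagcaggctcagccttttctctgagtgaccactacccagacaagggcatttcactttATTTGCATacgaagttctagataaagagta
Hist1h1c, chr13:23738647-23738806, plus strand: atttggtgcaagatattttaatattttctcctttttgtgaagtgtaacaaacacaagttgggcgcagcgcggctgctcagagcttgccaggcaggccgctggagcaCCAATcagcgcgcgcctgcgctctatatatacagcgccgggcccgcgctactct
Hist1h4h, chr13:23530884-23531043, plus strand: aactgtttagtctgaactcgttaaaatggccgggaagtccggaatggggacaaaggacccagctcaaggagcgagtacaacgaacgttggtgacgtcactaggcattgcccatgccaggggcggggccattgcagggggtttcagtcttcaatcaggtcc

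Histone cluster RNA was present at low to moderate levels in the muscle, carried by a few genes. Levels are TPM from the gene tables made from alignments, which correct for gene length and depth. All 8 skeletal muscle markers were detected, led by the actin gene Acta1 at 26410 and 21414 TPM in replicates 1 and 2. Estimated counts totalled 37735687 and 40656175. The 67 genes together reached 455 TPM in replicate 1 and 578 in replicate 2, or 516 ± 86.7 TPM (SD, n = 2). With a threshold of 1 TPM in both libraries, 42 of the 67 genes (62.7%) were detected, against 45.4% of all protein-coding genes. A further 13 passed in replicate 2 only, 1 in replicate 1 only, and 11 in neither library.

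The 10 highest genes held a mean of 67.9% of the TPM of the members. H4 genes held 33.2% (SD 4.05 percentage points, n = 2), H2A genes 20.5% (SD 1.63), H1 genes 19.6% (SD 0.259), H2B genes 18.0% (SD 0.457) and H3 genes 8.70% (SD 1.71). H4 was the highest class and H3 the lowest in both libraries, while H1, H2A and H2B lay close together. By reads-based TPM, H2A (158 and 220 TPM) and H4 (185 and 182 TPM) changed places between the libraries. The highest gene, Hist1h1c, ranked at position 593 among protein-coding genes by mean TPM. The plot of TPM by gene shows 12 genes with a mean above 10 TPM and a long tail around 1 TPM.

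**Figure D1:**
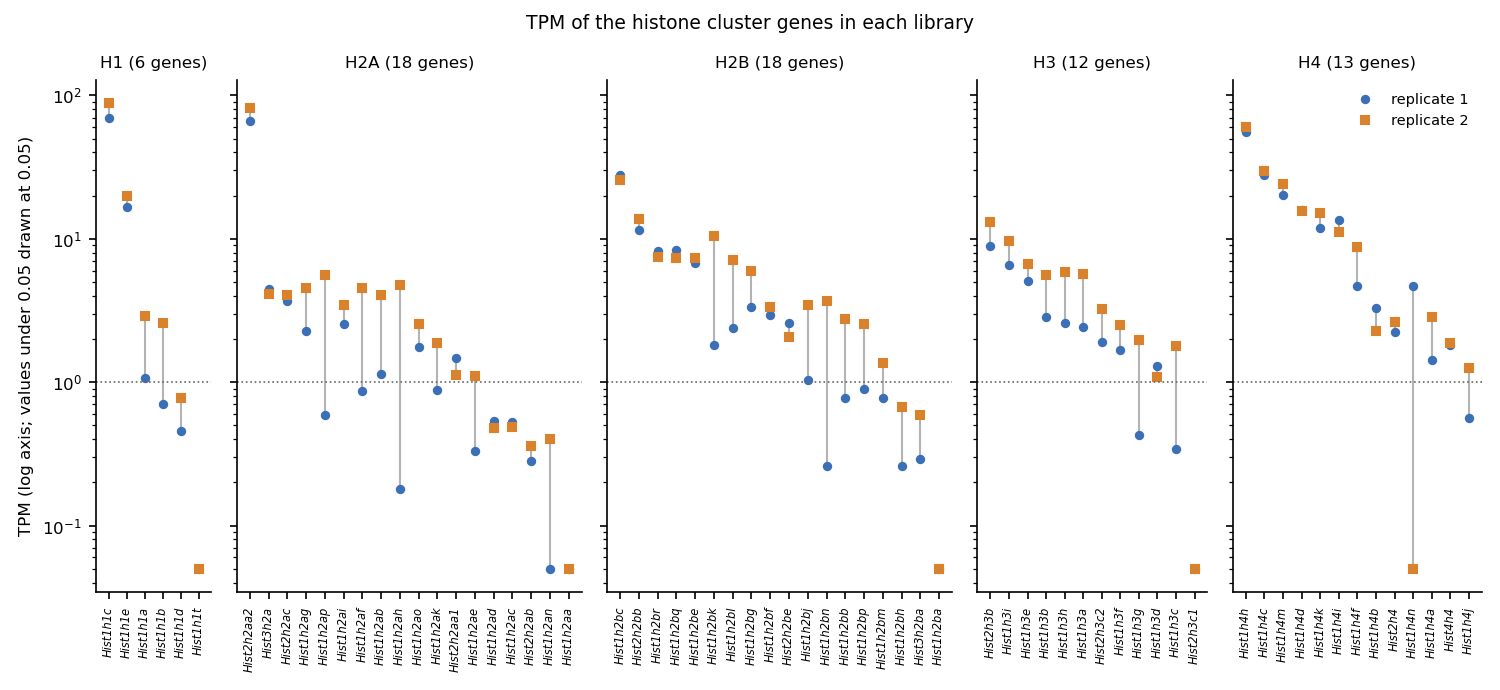
Deposited TPM (log axis) of each of the 67 histone cluster genes in replicate 1 (circles) and replicate 2 (squares), by class and ordered by mean; the dotted line marks 1 TPM and values under 0.05 are drawn at 0.05. Hist1h1c, Hist2h2aa2 and Hist1h4h stand at 55.86 TPM or more in both libraries, and many lower genes have their square well above their circle.

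Among the linker histones, Hist1h1c (ENSMUSG00000036181.2) stood at 69.6 TPM in replicate 1 and 88.2 in replicate 2, from 3105 and 4155 counts. It encodes a linker histone made in most somatic cells, and its mean level was the highest of all members by alignment. By reads it stood at 95.7 and 113 TPM, below Hist1h4h (126 and 129 TPM) and Hist2h2aa1 (125 and 148 TPM). Hist1h1e, another somatic H1 gene, followed at 16.6 and 19.9 TPM. Hist1h1a stood at 1.07 and 2.90 TPM and Hist1h1b at 0.71 and 2.60 TPM. Both lay higher in replicate 2, by 2.72-fold (95% counting interval 1.63 to 4.72) and 3.68-fold (2.01 to 7.17), and their posterior SD was 0 in both libraries. Hist1h1d took 103 and 182 counts, but its model runs for 7425 bases, 4884 of them past the stem-loop, and its TPM was 0.46 and 0.77. Hist1h1t, the H1 gene of testis, had 0 counts in both libraries.

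A pair of H2A genes on chromosome 3 made up most of the H2A RNA. Hist2h2aa2 was listed at 66.4 and 81.5 TPM and its neighbour Hist2h2aa1 at 1.47 and 1.12 TPM. Every 100-base window of Hist2h2aa2 also occurs in another gene, so the 2 cannot be told apart and only their sum of 67.8 and 82.6 TPM can be read. That sum and the level of Hist1h1c differed by less than the spread between the libraries. The next H2A genes were Hist3h2a (4.50 and 4.12 TPM) and Hist2h2ac (3.67 and 4.05 TPM), with almost equal levels in the libraries. A group of H2A genes of chromosome 13 lay lower in replicate 1. Hist1h2ag stood at 2.27 and 4.56 TPM, Hist1h2ab at 1.14 and 4.03 TPM, Hist1h2af at 0.87 and 4.51 TPM, Hist1h2ap at 0.59 and 5.62 TPM and Hist1h2ah at 0.18 and 4.77 TPM. Hist1h2ai (2.56 and 3.45 TPM), Hist1h2ao (1.76 and 2.54 TPM) and Hist1h2ak (0.88 and 1.89 TPM) differed less. Hist1h2ac, whose model is long, and Hist1h2ad lay slightly higher in replicate 1, at 0.53 and 0.49 TPM and at 0.54 and 0.48 TPM, and Hist1h2aa, the H2A gene of testis, had 0 counts in both.

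Among H2B genes, Hist1h2bc led at 28.1 and 25.7 TPM. Hist2h2bb followed at 11.5 and 13.9 TPM, then Hist1h2br (8.28 and 7.52 TPM), Hist1h2bq (8.35 and 7.38 TPM) and Hist1h2be (6.82 and 7.32 TPM). By alignment none of these 5 differed by as much as 1.5-fold between the libraries, and by reads Hist2h2bb, with 13 and 22 counts, was 1.63-fold higher in replicate 2. The lower genes did: Hist1h2bk stood at 1.82 and 10.4 TPM, Hist1h2bl at 2.38 and 7.15 TPM, Hist1h2bj at 1.03 and 3.48 TPM, Hist1h2bn at 0.26 and 3.66 TPM, Hist1h2bb at 0.78 and 2.75 TPM and Hist1h2bp at 0.90 and 2.53 TPM. Hist1h2bg (3.36 and 5.98 TPM) and Hist1h2bm (0.78 and 1.37 TPM) lay between, and Hist1h2bf (2.95 and 3.33 TPM) and Hist2h2be (2.58 and 2.07 TPM) were near equal. Hist1h2ba, the H2B gene of testis, had 0 counts in both libraries. Of 8 male germ cell markers, 6 had 0 counts in both libraries and the 8 summed to 5 and 0 counts.

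In Hist1h2be most of the alignment counts belonged to a transcript that is not protein-coding. That transcript, of 2099 bases, took 323 and 340 of the gene's 434 and 499 counts. The coding transcripts Hist1h2be-201 and Hist1h2be-202 took 0 and 111 counts in replicate 1 and 159 and 0.07 counts in replicate 2, so the split between the 2 changed sides from library to library. By reads it did not: Hist1h2be-201 took 328 and 456 counts and Hist1h2be-202 took 38.8 and 0.02. The non-coding transcript took 356 and 372 of 723 and 828 counts there.

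H3 genes were the lowest class. Hist2h3b stood at 8.90 and 13.1 TPM, Hist1h3i at 6.58 and 9.68 TPM and Hist1h3e at 5.11 and 6.67 TPM. Hist1h3b (2.86 and 5.61 TPM), Hist1h3h (2.57 and 5.89 TPM) and Hist1h3a (2.44 and 5.66 TPM) were near 2-fold apart. Hist2h3c2 stood at 1.92 and 3.25 TPM, Hist1h3f at 1.67 and 2.52 TPM, Hist1h3g at 0.43 and 1.96 TPM and Hist1h3c at 0.34 and 1.78 TPM. Hist1h3d, at 1.29 and 1.09 TPM, was the only H3 gene with TPM above 0 that lay lower in replicate 2. Hist2h3c1 was listed at 0 TPM with 0.2 and 0 counts, and all of its windows are shared with other genes.

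H4 genes encode the same core histone from many copies. Hist1h4h stood at 55.9 and 59.9 TPM, Hist1h4c at 28.0 and 29.7 TPM and Hist1h4m at 20.3 and 24.1 TPM. Hist1h4d (15.9 and 15.5 TPM), Hist1h4k (11.9 and 15.2 TPM) and Hist1h4i (13.6 and 11.2 TPM) followed. By alignment these 6 genes were close to equal in the libraries. By reads Hist1h4c was 0.50-fold, Hist1h4d 0.31-fold and Hist1h4k, with few counts, 0.19-fold in replicate 2. Hist1h4f stood at 4.66 and 8.77 TPM, Hist1h4a at 1.42 and 2.83 TPM, Hist1h4b at 3.28 and 2.26 TPM, Hist2h4 at 2.25 and 2.65 TPM and Hist4h4 at 1.82 and 1.88 TPM. Hist1h4n was listed at 4.70 and 0 TPM, and its reads are shared with Hist1h4m, as described next.

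Many of these genes are near copies of each other, and the tables say how surely reads were divided among them. Windows of 100 bases, the fragment length implied by the effective lengths, were compared between all GENCODE M21 transcripts. The median member had 65.7% of windows found in no other gene, 25 of 67 members had under 50%, 7 had all windows to themselves and 2 had none. The posterior SD of the count, the tables' own measure of this uncertainty, was over 50% of the count in a library for 7 of the 51 members that averaged 20 counts or more. The same held for 0.288% of protein-coding genes at that depth. For the 20 members with under 50% of windows to themselves the median posterior SD was 33.5% of the count in replicate 1 and 17.5% in replicate 2, against 3.29% and 2.72% for the other 31. Hist1h2bq and Hist1h2br are the plainest case: transcripts of 381 bases in each were given an equal 71.34 counts in replicate 1 and an equal 66.41 in replicate 2.

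**Figure D2:**
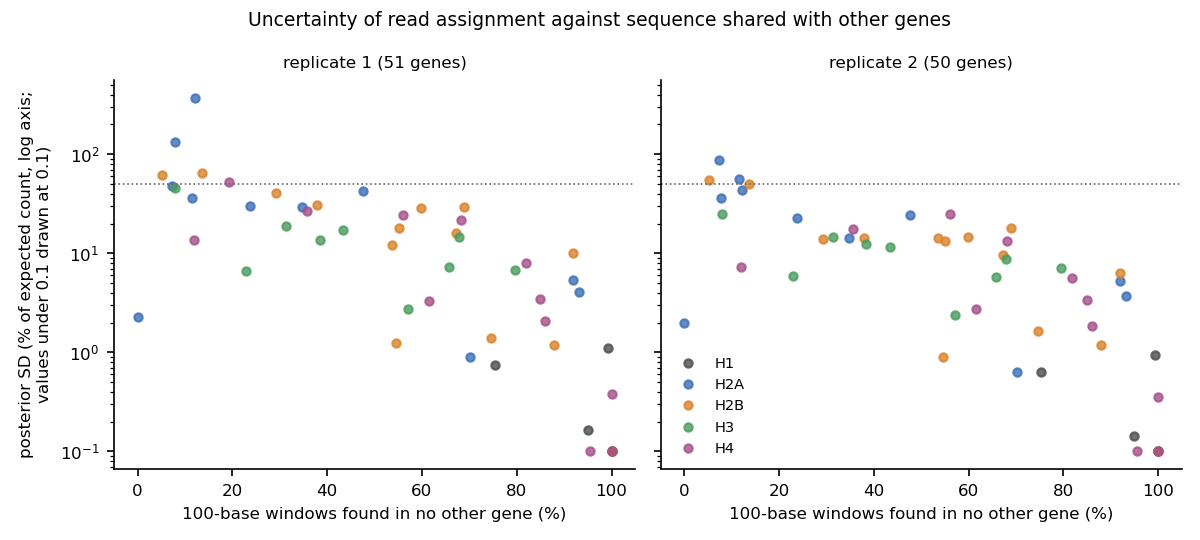
Posterior SD of the count as a percent of the expected count (log axis, values under 0.1 drawn at 0.1) against the percent of 100-base windows found in no other gene, for members averaging 20 counts or more, in each library, coloured by class; the dotted line marks 50%. Points fall from upper left to lower right, and the H2A point at 0% on the horizontal axis and near 2% on the vertical one is Hist2h2aa2.

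Hist1h4n and Hist1h4m show what such sharing does to a difference between libraries. Hist1h4n had 47.5 counts in replicate 1 and 0 in replicate 2, while Hist1h4m had 187.66 and 235.13. Their sum was 235.12 and 235.13 counts, or 0.954-fold after scaling (0.792 to 1.15). By reads the sum was lower, at 46.2 and 76.3 counts, and lay 1.59-fold higher in replicate 2. The posterior mean of Hist1h4n in replicate 2 was 16.7 counts with an SD of 15.3, so the listed 0 carries this uncertainty. For this reason 29 members were also summed into 7 sets whose genes share over 50% of the windows of the gene with fewer.

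Counting the reads directly without alignment gave other values for these genes. In that table the count was under 50% of the alignment count in both libraries for 24 of 51 members (47.1%), against 0.734% of protein-coding genes at the same depth. The median member had 47.9% of its alignment count there in replicate 1 and 50.3% in replicate 2, where the median protein-coding gene had 108% and 107%. By class, the reads-based counts summed to 96.1% and 95.6% of the alignment counts for H1, and to 37.9% and 33.3% for H4. The difference was therefore uneven between classes.

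Several H4 genes fell almost out of the reads-based table. Hist1h4d had 503 and 521 counts by alignment and 52 and 17 by reads, although all of its windows are its own. Hist1h4c had 617 and 690 counts by alignment and 200 and 104 by reads. Hist1h4k had 77.3 and 104 by alignment and 5.02 and 1.00 by reads, and Hist1h4f had 41.6 and 82.6 by alignment and 0 in both by reads. Hist2h2aa2 also had 0 there, but its neighbour Hist2h2aa1 had 781 and 1015, so their sum moved to the other copy. Hist1h2be had more counts by reads than by alignment, at 723 and 828. The tables also use different effective lengths, which enter TPM. Hist1h4h stood at 55.9 and 59.9 TPM by alignment and 126 and 129 TPM by reads, from fewer counts. Its TPM thus differed by over 2-fold between the tables while its count was lower by reads.

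**Figure D3:**
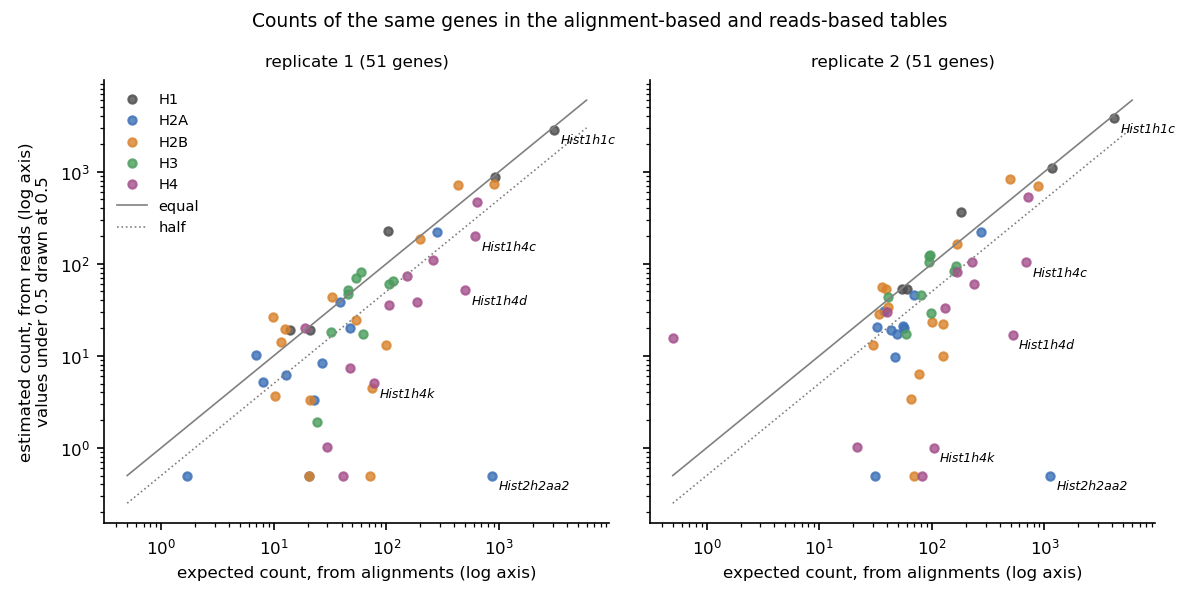
Estimated counts from the reads-based table against expected counts from alignments (both log axes, values under 0.5 drawn at 0.5) for 51 members in each library, coloured by class; the solid line marks equality and the dotted line 50%. Hist1h1c and Hist1h1e lie near the solid line and Hist1h1d, at 219% and 201%, above it, while Hist1h4c, Hist1h4d and Hist1h4k lie below the dotted line in both libraries.

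Replicate 2 held more histone cluster RNA than replicate 1. After TMM scaling, which aligns the bulk of genes, the summed count was 1.22-fold higher (95% counting interval 1.19 to 1.25). H3 differed most at 1.62-fold (1.45 to 1.80), then H2A at 1.30-fold (1.22 to 1.40), H1 at 1.29-fold (1.24 to 1.34) and H2B at 1.14-fold (1.07 to 1.21). By reads H3 was at 1.58-fold, H2A at 1.32-fold and H1 at 1.29-fold, while H2B was at only 1.04-fold. H4 was at 1.05-fold, with an interval of 0.999 to 1.11 that includes equality, and at 0.934-fold by reads. In bulk tissue, more cells that hold such RNA and more RNA per cell cannot be told apart. Intervals cover counting error only, since reads are not independent molecules, and with 2 libraries of 1 group they describe these libraries.

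**Figure D4:**
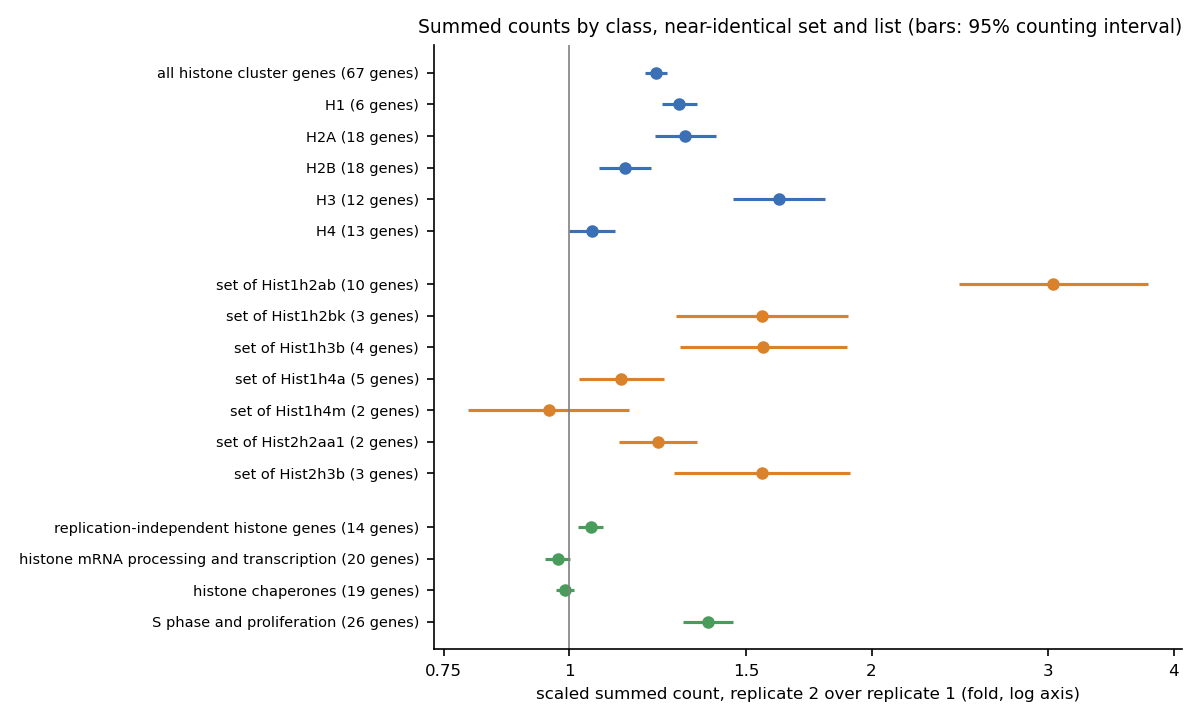
Scaled summed count in replicate 2 over replicate 1 (fold, log axis) with 95% exact counting intervals, for the 5 classes, the 7 near-identical sets and 4 gene lists. The H2A set of Hist1h2ab lies near 3-fold, and the lists of replication-independent histones, histone mRNA processing and chaperones lie close to 1.

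The largest differences lay among genes of low count. Among the 51 members averaging 20 counts or more, 14 were past 2-fold higher in replicate 2 (27.5%), against 3.6% of all genes at that depth. Hist1h4n alone was past 2-fold lower, against 2.22% of all genes. The median member log2 ratio was 0.44, beside -0.01 over all genes. All 14 had a mean count under 100, where 33 members stood. In that range 7.89% of all genes were past 2-fold higher. None of the 18 members averaging 100 counts or more was past 2-fold in either direction, and their median log2 ratio was 0.19.

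The 14 were Hist1h1a and Hist1h1b of H1, Hist1h2ab, Hist1h2af, Hist1h2ah and Hist1h2ap of H2A, Hist1h2bb, Hist1h2bh, Hist1h2bj, Hist1h2bk, Hist1h2bl and Hist1h2bp of H2B, and Hist1h3a and Hist1h3h of H3. All lie on chromosome 13, whose blocks hold 13, 5 and 24 of the 51 members at that depth. Near-identical sets hold 6 of the 14, and 29 of all 67 members. A posterior SD of at most 50% of the count in both libraries was found for 12 of the 14 and for 44 of the 51. Hist1h2ah and Hist1h2ap were above it. Hist1h2bk rested on 20.95 and 126 counts and was 5.72-fold higher (3.59 to 9.56). It had 29.2% of windows its own, a posterior SD of 40.8% and 14.0% of the count, and only 3.28 and 9.87 counts by reads. The interval does not hold this uncertainty of assignment. Hist1h3a, with 67.8% of windows its own, had 32.4 and 79.4 counts and was 2.35-fold higher (1.54 to 3.67). Of the 14, 7 had a mean count of at least 20 in the reads-based table too, and 5 of those 7 were past 2-fold higher there. Hist1h1a and Hist1h1b were among them by both routes, with 19 and 53 estimated counts each by reads.

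Summed over near-identical genes, where the division of reads within a set no longer enters, the difference remained for some sets. The 10 H2A genes of the Hist1h2ab set summed to 114 and 362 counts, 3.03-fold (2.45 to 3.77), and to 93.0 and 296 by reads. The H2B set of Hist1h2bk, Hist1h2bq and Hist1h2br was 1.55-fold higher (1.28 to 1.89), from 167 and 272 counts, but had only 8.05 and 16.3 counts by reads. The H3 set of Hist1h3b, Hist1h3d, Hist1h3h and Hist1h3i was 1.56-fold higher (1.29 to 1.89), and the H3 set of chromosome 3 1.56-fold (1.27 to 1.91). The Hist2h2aa pair was 1.22-fold higher (1.12 to 1.34) and the H4 set led by Hist1h4h 1.13-fold (1.02 to 1.24). By reads, the pair of Hist1h4m and Hist1h4n turned from 0.954-fold to 1.59-fold, while the other 6 sets kept their direction. The size of the difference thus varied from set to set, and for that H4 pair with the table.

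Genes of dividing cells lay higher in the same library. Of 26 genes of S phase and proliferation, 17 had a mean count of at least 20, and of these 14 lay higher in replicate 2. Past 2-fold higher were 6, against 3.6% of all genes at that depth, and the median log2 ratio was 0.36. The list summed to 28.8 and 38.3 TPM in replicates 1 and 2, and its summed count was 1.37-fold higher (1.30 to 1.45). Mki67, a marker of cycling cells, had 81 and 325 counts, Top2a, a topoisomerase of dividing cells, 31 and 174, and Ccna2, the cyclin of S phase and G2, 11 and 45. The replication factors Pcna (325 and 365 counts), Mcm2 (192 and 186) and Mcm7 (235.31 and 235.09) lay close to equality. Others of the list did not: Rrm1 had 519 and 694 counts, 1.28-fold (1.14 to 1.43), and Rrm2 26 and 71, 2.60-fold (1.64 to 4.25). Mcm5 was at 1.67-fold (1.06 to 2.66) and Mcm3 at 1.26-fold (0.954 to 1.66).

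Markers of thymocytes and T cells also moved with this difference. Of 14 markers, 10 had a mean count of at least 20 and 9 of them were past 2-fold higher in replicate 2, against 3.6% of all genes at that depth. The list summed to 6.72 and 22.8 TPM, of which Arpp21 gave 3.57 and 9.59 TPM. Cd1d1 gave 2.95 and 1.82 TPM and was the 1 that lay lower in replicate 2, at 0.619-fold (0.456 to 0.837). Most of the sum in replicate 1 thus came from these 2 genes. Rag1, a recombinase of developing lymphocytes, had 0 and 289 counts, Cd8a had 1 and 123, and Ptcra had 0 in both. Fat cell markers (371 and 114 TPM), Schwann cell markers (127 and 39.0 TPM) and red blood cell markers (2489 and 460 TPM) went the other way. So did all 8 skeletal muscle markers, which summed to 140734 and 101677 TPM and were 0.723-fold in replicate 2 (0.722 to 0.724). Slow fibre markers summed to 15.1 and 2612 TPM, while satellite cell markers, of the stem cells of muscle, summed to 26.0 and 24.8 TPM. The highest of these 7, Cdh15 (10.2 and 8.00 TPM) and Myog (8.91 and 7.89 TPM), lay lower in replicate 2. The other 5 lay higher, among them Pax7 at 1.27-fold (1.00 to 1.61) and Myf5 at 1.59-fold (1.05 to 2.43). The median log2 ratio of the 7 was 0.27. The part of any of these cells in the histone difference was not tested.

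The difference between libraries also varied with the form of the gene model. The groups by model end were formed after the data had been seen, and each gene was placed by its coding transcript that runs furthest. Models that end within 100 bases after the stem-loop, the usual end of a replication-dependent histone mRNA, had a median log2 ratio of 0.95 over 18 members with enough counts, and 7 were past 2-fold higher. Models that run further past it had a median of 0.25 over 17 members, and 1, Hist1h2bh, was past 2-fold higher. Models that end at the stop codon had a median of 1.21 over 9 members, with 5 past 2-fold higher. Longer models without an exact stem-loop had 0.03 over 7 members, with Hist1h1a past 2-fold. Hist1h2bq (-0.17) and Hist1h2br (0.03) were placed in this last group by long transcripts with few counts. Most of their counts lay on transcripts of 381 bases, the length of Hist1h2bl, whose model ends at the stop codon. The medians of these last 2 groups thus depend on where Hist1h2bq and Hist1h2br are placed.

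Depth and shared sequence moved with these groups. The median mean count was 40.0 for models ending near the stem-loop, 142 for those running past it and 41.9 for those ending at the stop codon. The median share of windows of their own was 50.6%, 86.0% and 34.7%. Within members of under 100 counts, the medians were 1.00 over 15, 0.69 over 6 and 1.41 over 8. At 100 counts or more, 3 models ending near the stem-loop had a median of 0.25 and 11 running past it 0.13. The part of depth and shared sequence in the group medians was not tested further.

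**Figure D5:**
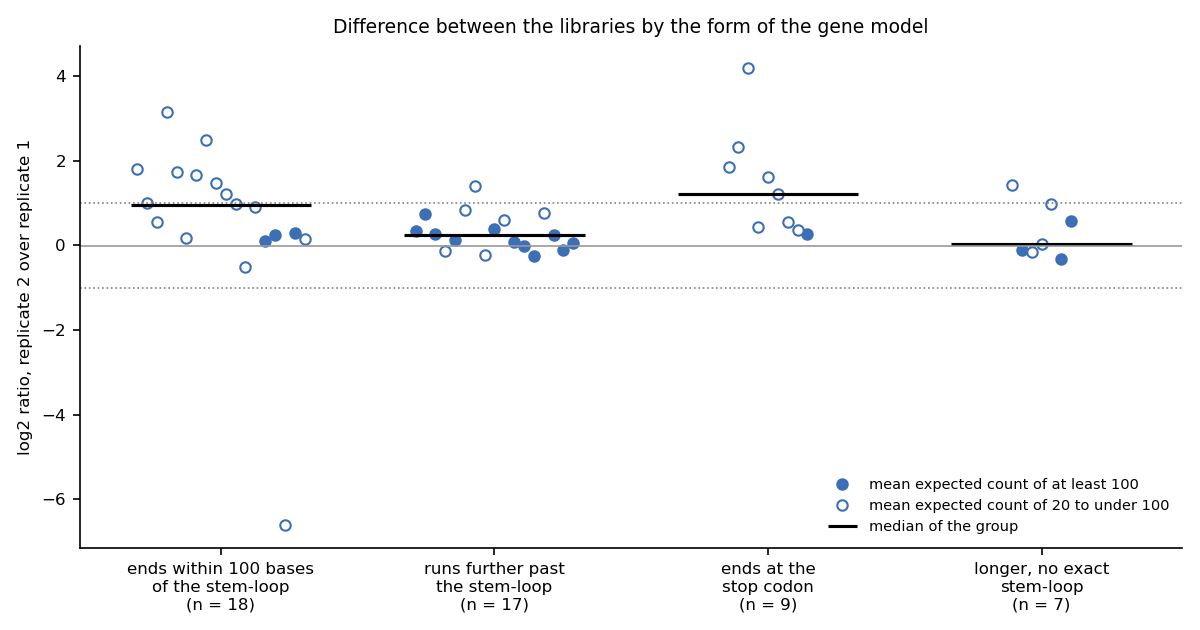
Log2 ratio of replicate 2 over replicate 1 for 51 members, by where the gene model ends; filled points have a mean count of at least 100, open points 20 to under 100, black bars are group medians, dotted lines mark 2-fold and the grey line is the median of all genes. The points beyond 2-fold are all open, and the lowest point is Hist1h4n, whose reads are shared with Hist1h4m.

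Neighbouring H2A and H2B genes that are read away from each other from a shared stretch did not always move together. There were 12 such pairs, with starts 175 to 305 bases apart, and 7 had both genes at a mean count of at least 20. In the pair of Hist1h2ah and Hist1h2bk both genes were past 2-fold higher in replicate 2, in 3 pairs neither was, and in the other 3 of these 7 pairs 1 gene was. Among the last, Hist1h2ag beside Hist1h2bj sat on the line, at 2.01-fold by scaled counts and a log2 ratio of 0.996. Hist1h2ah, of the first, rested on 1.7 and 47.1 counts, with a posterior SD of 373% and 44.1% of the count. By reads it had 0 and 9.75 counts and Hist1h2bk 3.28 and 9.87, so the joint difference of that pair is uncertain. Levels within a pair differed too. Hist1h2ac stood at 0.53 and 0.49 TPM beside Hist1h2bc at 28.1 and 25.7 TPM, 250 bases away. Hist2h2ac (3.67 and 4.05 TPM) and Hist2h2be (2.58 and 2.07 TPM), 238 bases apart, were close. Lengths of the models and shared reads differ within pairs, and their part in these ratios was not tested.

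By place in the genome, the block of 31 genes on chromosome 13 from 23531050 to 23934851 held 55.2% of member TPM, and the 10 genes on chromosome 3 from 96219865 to 96270132 held 21.4%. The block of 18 genes on chromosome 13 from 21715763 to 21837530 held 17.0% and that of 5 genes from 22035164 to 22043676 held 5.05%. Summed counts were 1.48-fold and 1.45-fold higher in replicate 2 in the blocks of 5 and 18 genes, 1.21-fold in the block of 31 and 1.20-fold on chromosome 3. The 2 genes on chromosome 11 were at 0.94-fold and Hist4h4 on chromosome 6 at 1.04-fold. By reads the block of 18 genes was 2.37-fold higher and the block of 5 genes 1.25-fold, beside 1.20-fold for the block of 31 and 1.22-fold on chromosome 3.

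As a sum, histone genes that are expressed outside S phase lay near equality between the libraries. The list held 14 genes, and cluster genes held a mean of 64.4% of the TPM of both kinds together. H3f3a, which encodes the replacement histone H3.3, stood at 129 and 140 TPM, above every cluster gene. H3f3b, which encodes the same protein, stood at 28.6 and 29.5 TPM, against 34.1 and 57.2 TPM for all 12 cluster H3 genes together. H1f0, the linker histone of differentiated cells, stood at 33.2 and 34.3 TPM and H2afy, a macroH2A gene, at 28.0 and 27.2 TPM. Of 11 genes with enough counts none was past 2-fold, and the summed count was 1.05-fold higher (1.02 to 1.08). Over all genes at that depth only 3.6% were past 2-fold higher and 2.22% lower, so a count of none is not particular to this list. H1fx lay lower in replicate 2, with 35 and 20 counts, 0.545-fold (0.298 to 0.970). Cenpa, the H3 variant of centromeres, came closest with 27 and 56 counts, 1.98-fold (1.23 to 3.26).

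Most genes that make and handle histone RNA and protein differed little between the libraries. Of 20 genes of histone mRNA processing and transcription, 18 were detected, and of 19 with enough counts none was past 2-fold. Of these 19, 9 lay higher in replicate 2 and 10 lower. Slbp, the stem-loop binding protein, stood at 2.62 and 2.99 TPM, 1.33-fold by counts, Npat, the activator of histone genes, at 1.63 and 2.23 TPM, and Lsm10, a subunit of the particle that cuts histone mRNA, at 2.83 and 2.97 TPM. Lsm11, of the same list, lay lower in replicate 2, with 224 and 161 counts, 0.685-fold (0.556 to 0.843). Of 19 histone chaperones 16 were detected, and none of 17 with enough counts was past 2-fold. For both lists, the share over all genes at that depth was only 3.6% past 2-fold higher and 2.22% lower. Nap1l4, an H2A and H2B chaperone, led at 67.6 and 65.3 TPM, and Hira, which loads H3.3 outside S phase, stood at 9.36 and 8.40 TPM. Chaf1a and Chaf1b, subunits of the factor that loads new histones behind the replication fork, stood at 0.18 and 0.54 TPM and at 0.20 and 0.14 TPM. By counts Chaf1a had 30 and 49, 1.56-fold (0.969 to 2.54), and Chaf1b only 5 and 6.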

How the data were processed

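Per the deposited descriptions, each library has gene and transcript tables made from transcriptome alignments, plus a further transcript table made from the reads themselves, all on mm10 with annotation M21. Which programs were used is not given in the sources used here. Expected counts, their posterior mean and the estimated counts of the reads-based table were used as deposited. TPM values are as deposited, scaled over all rows, spike-ins included. The posterior SD of the count served as a score of the uncertainty of read assignment, per the file headers. Effective length in the alignment tables is length minus 99 bases. Strandedness of the counting is not stated there, so overlapping genes are uncertain. The effect of aligning hybrid mice to mm10 was not tested.

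Members were found by symbol. Ratios are replicate 2 over replicate 1 of rounded expected counts scaled by TMM in edgeR 4.0.16 (prior count 0.5), over genes averaging at least 20 counts. They were computed over all genes. Spike-in and tRNA rows stayed out. Printed folds are ratios of scaled counts with exact Clopper-Pearson intervals at 95%. Calls past 2-fold used the log2 ratio with its prior count instead. By it Hist1h2ag (0.996) and Hist1h4a (0.987) were not called, although each was at 2.01-fold by scaled counts. DESeq2 1.42.0 in R 4.3.3 gave alternative size factors, and Python 3.11.15 with pandas 2.3.3, numpy 2.4.6, scipy 1.17.1 and matplotlib 3.10.9 did the rest. The ratio step was tested on simulated data with 200 changed genes. No test of a condition was possible.

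The members and gene lists were chosen with earlier results of these data known. Named genes are those with a mean TPM of at least 1, the highest of each class, those past 2-fold, those with a posterior SD over 50% of the count and those with several coding transcripts, with up to 4 of each other list. Hist1h1d, Hist1h1t, Hist1h2aa, Hist1h2ac, Hist1h2ad, Hist1h2ba, Hist1h2be's transcripts and further list genes were named after their values were seen. So were the stem-loop groups, near-identical sets, gene pairs, promoter motifs and the count range from 20 to 100. Endothelial (72.2 and 75.4 TPM in replicates 1 and 2), fibroblast (684 and 703 TPM), macrophage (28.9 and 32.5 TPM), B cell (42.7 and 51.6 TPM) and oocyte markers (6 counts in each) were also summed. Alternatives covered thresholds, scaling, length correction, the reads-based table, uncertain members and each library left out.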

Additional observations from a re-analysis of the deposited data

How the results depend on the processing

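With 1 group of 2 libraries, values between libraries have no replicate check, and low members are limited by depth. No paired analysis was possible because there is 1 group.
The reads-based table moved most values: summed member TPM to 675, the shares of H1 to 20.2%, H2A to 27.8%, H2B to 14.7% and H4 to 27.4%, the share of the top 10 to 74.8%, the share of all histone TPM to 58.1%, members over 2-fold apart from 15 to 7 of 36, the median member log2 ratio to 0.33, and the medians of models ending near and running past the stem-loop to 0.70 and 0.10. Uncorrected counts gave shares of 39.8% (H1), 13.3% (H2A), 6.00% (H3), 23.2% (H4), 76.9% (top 10) and 55.1% (of all histones), so H1 replaces H4 as the highest class, as H2A does by reads. Annotated length gave H1 21.9%. Without uncertain members H1 held 20.95% and H2B 15.5%. Rescaled to protein-coding genes the sum was 1074 TPM. At 5 TPM 17 members were detected. Spike-in scaling moved the median of all genes by 0.39, gave a median member log2 ratio of 0.83, medians of 1.33 and 0.64 for the 2 groups of models, and called 21 members higher and 1 lower (8.03% and 1.21% of all genes). At a mean count of at least 100, 0 members were over 2-fold apart and the median was 0.19; at 5 or more it was 0.57 and 21 were over 2-fold.
With either library alone, 43 to 55 members were detected, summed TPM was 455 to 578, and shares were 19.4% to 19.8% (H1), 19.3% to 21.6% (H2A), 17.7% to 18.3% (H2B), 7.50% to 9.91% (H3), 30.3% to 36.1% (H4), 64.7% to 71.2% (top 10) and 62.1% to 66.7% (of all histones). These single-library values of TPM and shares lie within the SD by construction. Of the other alternatives, 32 values lay within the spread between the libraries or within 1.5 times the count, and no median ratio above changed direction. By reads, the summed counts of H4 (0.934-fold) and of Hist1h4m with Hist1h4n (1.59-fold) lay on the other side of equality. The alternatives on the 2 groups of models were chosen after seeing the data.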

Other observations

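The exact stem-loop was also found in protein-coding transcripts of 25 genes outside the cluster genes. H2afx, the H2A variant of DNA repair, is 1 of them, and was listed above among the histone genes expressed outside S phase. Where its RNA ended in this muscle was not tested. It stood at 4.71 and 5.05 TPM, with 185 and 209 counts, and was 1.08-fold apart. The other genes are mostly unrelated to histones, so a match of these letters is not by itself a histone mRNA end.

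There were 7 members with all 100-base windows of their own, and 2, Hist1h1t and Hist1h2aa, had 0 counts. Of the other 5, Hist1h1a (21 and 60 counts) and Hist1h1b (14 and 54 counts) lay higher in replicate 2, while Hist2h2be (199 and 168), Hist2h4 (105 and 131) and Hist1h4d (503 and 521) lay within 1.3-fold by alignment. Hist1h4d had only 52 and 17 counts by reads. The model of Hist1h1b ends at the stop codon and that of Hist1h1a 48 bases after it, whereas the models of Hist2h4, Hist2h2be and Hist1h4d run 1311, 2192 and 822 bases past the stop codon.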
